A study of Mus musculus with 9 samples.

Results

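Sphingosine 1-phosphate (S1P) is a lipid that cells make, export, sense and destroy, and 9 genes of its receptors and metabolism were followed in mouse myeloid precursors (MPs) cultured with or without RANKL. They were the receptors S1pr1, S1pr2, S1pr3 and S1pr4, the kinases Sphk1 and Sphk2, the lyase Sgpl1, the phosphatase Sgpp1 and the exporter Spns2. All 9 were among the 14860 genes measured, each by 1 transcript cluster, the group of exon probes that the array assigns to a gene. The set was chosen by the values of S1pr1, which were lower with RANKL at both times, so its differences from the controls are given as a description, with no test.

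Total RNA from 9 samples was hybridised to 1 exon array each, 3 arrays in each of 3 groups. Bone marrow cells of strain C57Black6 mice were expanded for 3 days in 100 ng/ml CSF-1, which macrophages and their precursors need to grow. That dose is from the labels, and a lower one is stated in the methods of the study. The enriched MPs were then moved to a commercial osteoclast precursor medium and kept in CSF-1 alone, or given CSF-1 with RANKL, the cytokine that drives osteoclast (OC) formation, for 1.5 or 3 days. How long the CSF-1 alone samples were cultured is not in the labels, so an effect of RANKL and one of longer culture cannot be told apart. Nor do the labels say if replicates were separate mice or cultures, so p-values measure only the spread between arrays. In these bulk samples, fewer cells that carry a transcript and less of it per cell cannot be told apart.

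Sphingosine kinases add a phosphate to sphingosine, and the product leaves the cell through transporters such as Spns2. Outside the cell, S1P acts on a family of G protein-coupled receptors. Inside, phosphatases return it to sphingosine and the lyase cleaves it for good. S1P is abundant in blood and scarce in most tissues, and white blood cells use that gradient to leave bone marrow and lymphoid organs. In mice, OC precursors move toward S1P through S1PR1, while S1PR2 opposes this movement, and the balance affects how many precursors stay on bone.

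The labels were checked with the OC enzymes Acp5, Ctsk and Mmp9. Acp5 read 6.28, 6.37 and 6.19 log2 in CSF-1 alone, 7.72, 11.17 and 11.03 at 1.5 days, and 10.82, 11.75 and 11.66 at 3 days. Ctsk read 7.05, 6.89 and 6.70, then 8.01, 10.68 and 10.53, then 10.27, 11.19 and 11.40. Mmp9 read 4.10, 4.09 and 4.84, then 7.04, 10.47 and 10.55, then 10.95, 11.86 and 11.94. Every RANKL array was above every control array for these enzymes, and replicate 1 at 1.5 days was the lowest RANKL array for each. Of 10 OC markers, 9 were higher without overlap at 3 days (6.59% of all genes) and 7 at 1.5 days (8.63%). Apart from Acp5, Ctsk and Mmp9, the OC and macrophage markers were picked after their values were seen. Counts over them are only a description. At 1.5 days Itgb3 differed by -0.29. Replicate 1 at 1.5 days read 3.40 for Calcr, below the controls, and 8.81 for Atp6v0d2, below the 9.13 of CSF-1 alone replicate 1. The mean of 9 macrophage markers was 10.4 to 10.5 in CSF-1 alone, 9.96 to 10.4 at 1.5 days and 10.2 to 10.6 at 3 days. At 1.5 days 8 of the 9 had negative differences. Of these, 4 were lower without overlap, Mrc1 (-1.17), Fcgr1 (-1.06), Mertk (-0.68) and Cd68 (-0.16), as were 6.05% of all genes. Spi1, the gene of the transcription factor PU.1, rose by 0.41 (limma adjusted p = 0.0427), and the other 8 did not pass, where 0.417% of all genes did. At 3 days 6 of the 9 had negative and 3 positive differences. Of them 0 were lower without overlap (4.91% of all genes) and 1, Spi1, was higher (6.59%). S1pr1 differed by -0.74 at both times. The part of these markers in the S1pr1 values was not tested.

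S1pr1, the receptor that draws cells toward S1P, was the member with the lowest RANKL values relative to its controls. Its log2 signal (transcript cluster 6908461) was 8.70, 8.89 and 8.85 in CSF-1 alone, 8.24, 7.85 and 8.13 at 1.5 days, and 8.14, 8.02 and 8.07 at 3 days. All 6 RANKL arrays lay below the lowest control, as they did for 2.37% of all genes. The share was 4.91% for the 3-day arrays taken alone and 6.05% for the 1.5-day arrays. The group means were 8.81 ± 0.10 (SD, n = 3), 8.07 ± 0.20 and 8.08 ± 0.06, a log2 difference of -0.74 at 1.5 days and -0.74 at 3 days. On the linear scale this left 59.9% and 60.0% of the control signal. The lower level was in place at the first time point sampled. The transcript was still in the upper part of each array, with 75.3% to 88.2% of genes below it.

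Few genes had differences as negative as that of S1pr1. At 3 days 87 genes (0.585%) were at or below its value, S1pr1 included, and at 1.5 days 92 genes (0.619%). Both comparisons use the same CSF-1 alone arrays. Low values of S1pr1 chose the set, so a low position follows from that choice and is given only as a description. The highest RANKL value of S1pr1, 8.24, was on replicate 1 at 1.5 days, the RANKL array with the lowest OC enzymes. Without that array the 1.5-day difference was -0.82, and without replicate 2 it was -0.63. From 1.5 to 3 days Mmp9 differed by 2.23, Acp5 by 1.44 and Ctsk by 1.21 (limma adjusted p = 0.823 for each). S1pr1 differed by 0.003 between those times. A link between S1pr1 and these enzymes was not tested.

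**Figure D1:**
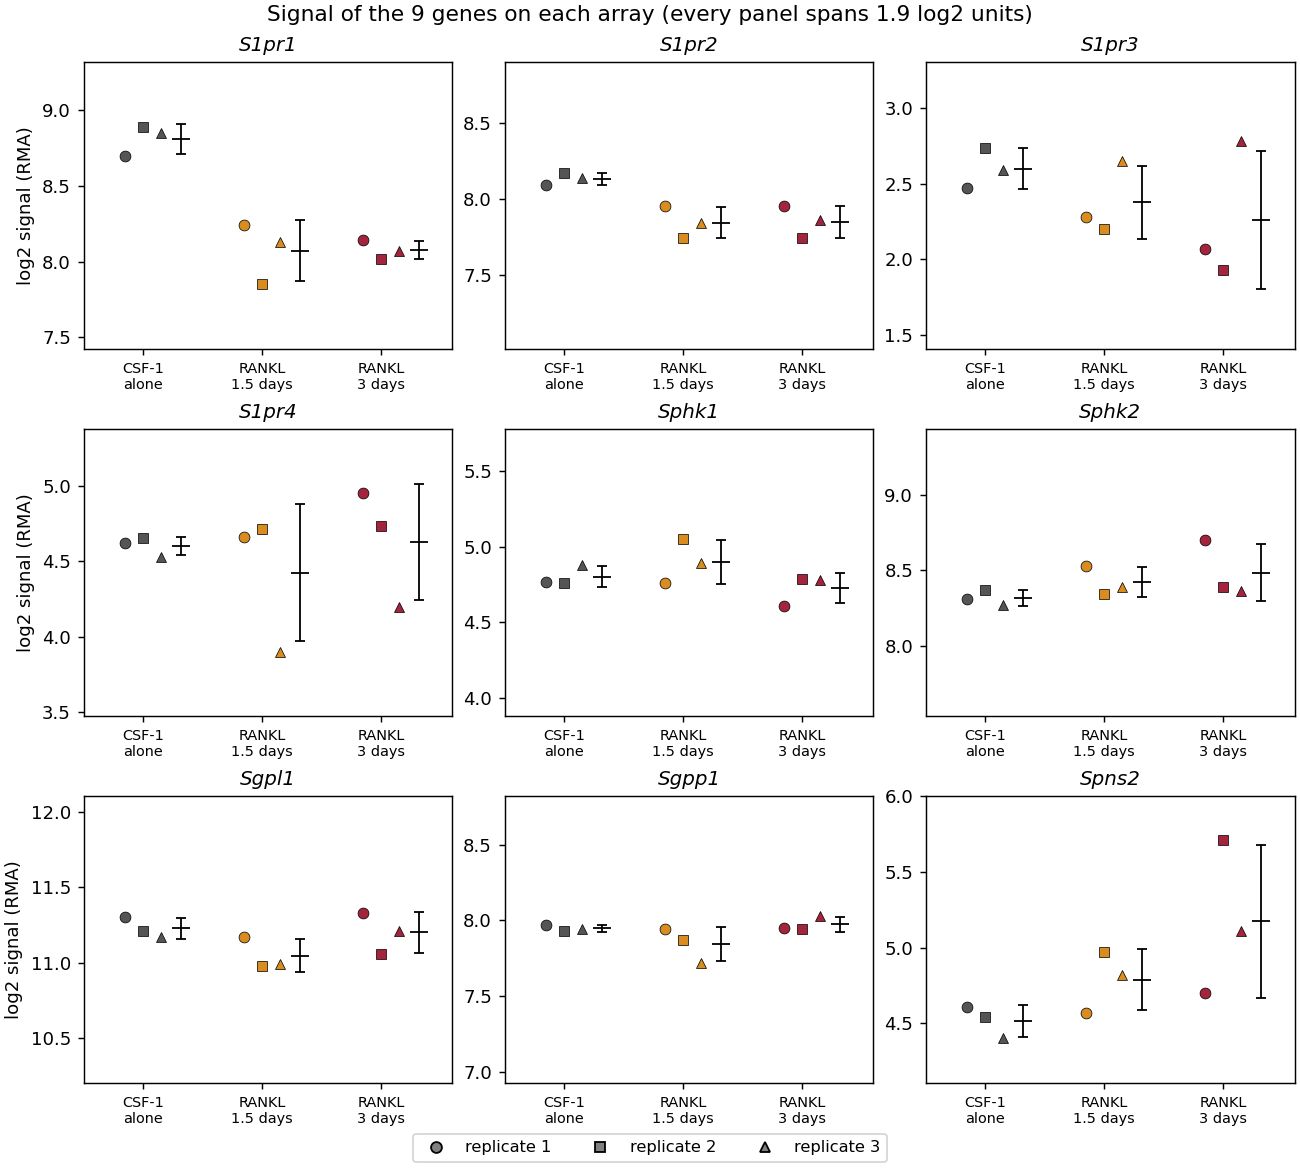
Log2 signal of the 9 genes on each array, with 1 panel per gene, the 3 groups on the x axis, points for arrays and bars for the group mean ± SD. S1pr1 lies between 8.70 and 8.89 in CSF-1 alone and between 7.85 and 8.24 with RANKL, while Sgpl1 lies between 10.98 and 11.33 throughout.

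The means of S1pr1 at 1.5 and 3 days, 8.07 and 8.08, differed by less than the spread within either group. Low values at both times chose the set, so this small difference is given with no test. The spread was wider at 1.5 days, where replicate 2 was the lowest of all 9 arrays at 7.85.

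S1pr2, the receptor that opposes movement toward S1P, also read lower with RANKL but did not pass the test over all genes. Its log2 signal was 8.09, 8.17 and 8.14 in CSF-1 alone, 7.95, 7.74 and 7.84 at 1.5 days, and 7.95, 7.74 and 7.86 at 3 days. No RANKL array reached a control array at either time. The log2 difference was -0.29 at 1.5 days (95% interval -0.47 to -0.11, limma adjusted p = 0.238) and -0.28 at 3 days (-0.46 to -0.11, adjusted p = 0.212). The 1.5-day call depended on how arrays were weighted, since limma with array weights gave -0.33 and an adjusted p of 0.0244. Weighting widened the 1.5-day call list as a whole, to 607 of the 14860 genes from 62 in the main fit. Of those 607 calls, 305 were negative and 302 positive, so the S1pr2 call was 1 of many added by that setting. Between the times the S1pr2 difference was 0.01 (-0.17 to 0.18, adjusted p = 0.994).

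The upstream window of S1pr2 is shown because it is the receptor besides S1pr1 whose RANKL and control arrays did not overlap. RefSeq windows, 250 bases before to 50 after a start in assembly GRCm38.p6, were held for 8 of the 9 genes, 13 windows in all. They were searched on both strands for the PU.1 core GAGGAA, the MITF E-boxes CACGTG and CATGTG, the NFAT core GGAAA, the AP-1 site TGANTCA and the NF-kB consensus. PU.1, MITF and NFAT are transcription factors of the OC lineage. The S1pr2 window, chr9:20976744-20977043 on the minus strand, held 1 match, in capitals, the NFAT core that begins 10 bases before the start.
S1pr2: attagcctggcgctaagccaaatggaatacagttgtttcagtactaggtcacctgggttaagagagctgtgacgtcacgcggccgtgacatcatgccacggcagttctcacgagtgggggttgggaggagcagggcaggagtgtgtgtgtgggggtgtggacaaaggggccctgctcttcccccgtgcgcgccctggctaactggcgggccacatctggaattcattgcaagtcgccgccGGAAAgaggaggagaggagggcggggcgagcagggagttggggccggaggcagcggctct
That core occurs in 61.3% of the 32851 mouse windows, so its presence is common. A match describes letters only, and binding was not analysed here.

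The remaining receptors were dimmer and none passed the test. S1pr3, a receptor that couples to several G proteins, read 2.47, 2.74 and 2.59 in CSF-1 alone, 2.28, 2.20 and 2.65 at 1.5 days, and 2.07, 1.93 and 2.78 at 3 days. It lay below the lower quartile of genes on all 9 arrays, with 6.87% to 18.3% of genes below it, and its groups overlapped. The difference was -0.22 at 1.5 days (-0.74 to 0.29, adjusted p = 0.922) and -0.34 at 3 days (-0.86 to 0.18, adjusted p = 0.659).

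S1pr4 is a receptor found mainly on blood cells. It read 4.62, 4.65 and 4.53 in CSF-1 alone, 4.66, 4.71 and 3.90 at 1.5 days, and 4.95, 4.73 and 4.20 at 3 days. Replicate 3 was the lowest array of both RANKL groups, and the groups overlapped. The difference was -0.18 at 1.5 days (-0.76 to 0.40, adjusted p = 0.968) and 0.03 at 3 days (-0.55 to 0.61, adjusted p = 0.986). S1pr5, the family's other receptor and not part of the set, read 5.29 to 5.90 in CSF-1 alone, 5.32 to 5.60 at 1.5 days and 4.96 to 5.81 at 3 days, with a difference of -0.25 at 3 days (adjusted p = 0.779).

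**Figure D2:**
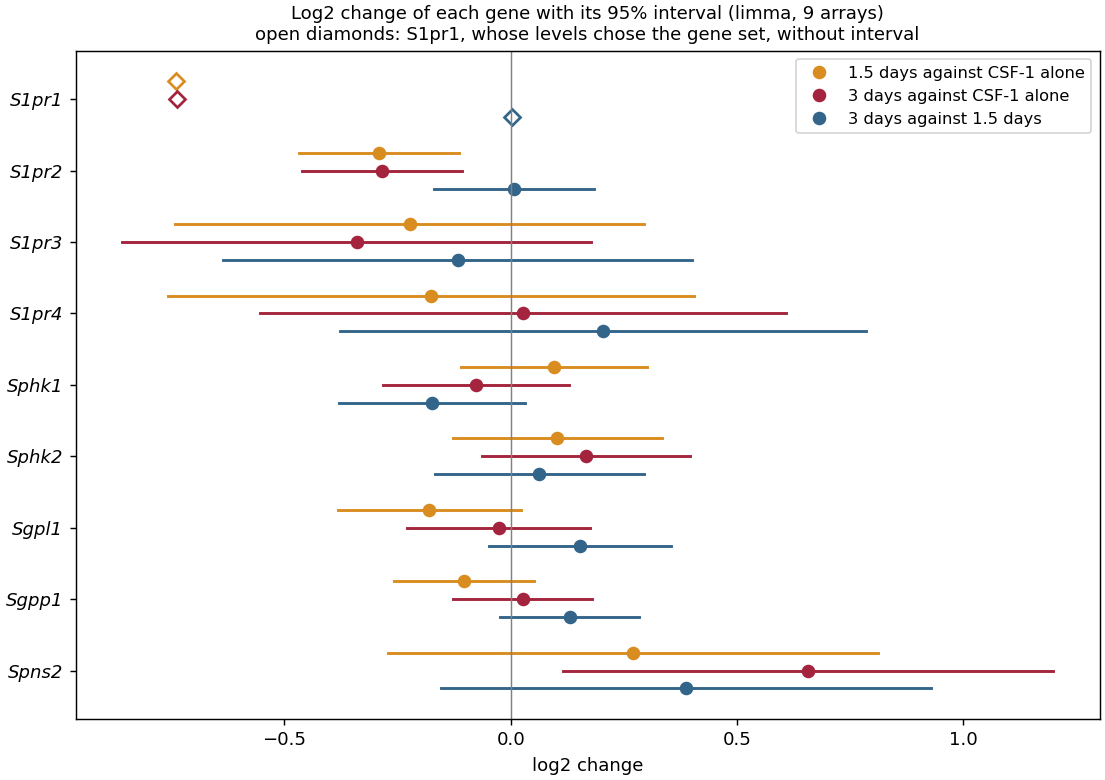
Log2 change of each gene in the 3 comparisons (x axis, log2 units), with points for the limma estimate and lines for the 95% confidence interval; S1pr1 is drawn as open diamonds with no interval, since its values chose the set. S1pr1 lies at -0.74 at both times, S1pr2 near -0.29, and Spns2 at 0.66 at 3 days with an interval from 0.12 to 1.20.

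Both sphingosine kinases, which make S1P, had differences of at most 0.17 in size, and neither passed the test. Sphk1, the mainly cytoplasmic kinase, read 4.77, 4.76 and 4.88 in CSF-1 alone, 4.76, 5.05 and 4.89 at 1.5 days, and 4.61, 4.79 and 4.78 at 3 days. Its difference was 0.10 at 1.5 days (-0.11 to 0.30, adjusted p = 0.904) and -0.08 at 3 days (-0.28 to 0.13, adjusted p = 0.807). Sphk2, found in the nucleus and on organelles, read 8.31, 8.37 and 8.27, then 8.53, 8.34 and 8.39, then 8.70, 8.39 and 8.36. The groups of each kinase overlapped in both comparisons, and the highest Sphk2 array was replicate 1 at 3 days. Its difference was 0.10 at 1.5 days (-0.13 to 0.33, adjusted p = 0.914) and 0.17 at 3 days (-0.06 to 0.40, adjusted p = 0.624).

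Sgpl1, the lyase that ends S1P signalling irreversibly, was among the brightest transcripts, with 98.7% to 99.3% of genes below it on each array. It read 11.30, 11.21 and 11.17 in CSF-1 alone, 11.17, 10.98 and 10.99 at 1.5 days, and 11.33, 11.06 and 11.21 at 3 days. The difference was -0.18 at 1.5 days (-0.38 to 0.02, adjusted p = 0.644) and -0.03 at 3 days (-0.23 to 0.18, adjusted p = 0.948). Its groups met or overlapped in both comparisons, the highest value at 1.5 days being equal to the lowest control.

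Sgpp1, the phosphatase that returns S1P to sphingosine, lay between 7.72 and 8.03 on all 9 arrays. It read 7.97, 7.93 and 7.94 in CSF-1 alone, 7.94, 7.87 and 7.72 at 1.5 days, and 7.95, 7.94 and 8.03 at 3 days. The difference was -0.10 at 1.5 days (-0.26 to 0.05, adjusted p = 0.796) and 0.03 at 3 days (-0.13 to 0.18, adjusted p = 0.926), and the groups overlapped. Its relative Sgpp2, outside the set, read 3.84 to 4.09 across all 9 arrays.

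Spns2, the transporter that carries S1P out of cells and is best known from endothelium, had the widest range of the set. It read 4.61, 4.54 and 4.40 in CSF-1 alone, 4.57, 4.97 and 4.82 at 1.5 days, and 4.70, 5.71 and 5.11 at 3 days. All 3 arrays at 3 days were above the controls, replicate 1 narrowly and replicate 2 by the most. The difference at 3 days was 0.66 (0.12 to 1.20), which did not pass the test (limma adjusted p = 0.369), and at 1.5 days it was 0.27 (-0.27 to 0.81, adjusted p = 0.892). Leaving out replicate 2 at 3 days gave 0.39, and leaving out replicate 1 gave 0.89.

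The Spns2 window is shown because it was the only member with higher, non-overlapping values at 3 days. It is chr11:72474978-72475277 on the minus strand, at a start inside the gene model, and its capitals mark an NFAT core 152 bases and a PU.1 core 20 bases before that start.
Spns2: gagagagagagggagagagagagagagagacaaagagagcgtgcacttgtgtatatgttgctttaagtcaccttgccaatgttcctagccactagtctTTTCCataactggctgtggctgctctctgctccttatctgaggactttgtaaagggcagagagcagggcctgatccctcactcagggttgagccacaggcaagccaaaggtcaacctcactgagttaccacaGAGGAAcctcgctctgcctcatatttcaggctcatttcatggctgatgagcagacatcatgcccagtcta
The PU.1 core occurs in 28.3% of mouse windows of this length.

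Of the 8 members other than S1pr1, 0 passed limma's test at 3 days, where 0.397% of all genes did (0.343% higher and 0.0538% lower), and 2, S1pr2 and Spns2, had an unadjusted p under 0.05 (10.5% of all genes). At 1.5 days 0 of 8 passed, against 0.417% of all genes (0.316% higher and 0.101% lower), with 1, S1pr2, at an unadjusted p under 0.05 (8.83%). At 3 days 2 of 8 had groups that did not overlap (11.5% of all genes), 1 higher (6.59%) and 1 lower (4.91%). At 1.5 days 1 of 8 did (14.7%), with 0 higher (8.63%) and 1 lower (6.05%). The median log2 change of the 8 was 0.00 at 3 days and -0.14 at 1.5 days, against medians over all genes of -0.01 and 0.01.

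Between 1.5 and 3 days, 0 of the 8 passed, as did 0% of all genes, and 0 had an unadjusted p under 0.05 (5.19% of all genes). None had non-overlapping groups, which 6.79% of all genes had (3.42% higher and 3.37% lower). The differences ran from -0.17 for Sphk1 to 0.39 for Spns2 (adjusted p = 0.823 for both).

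S1pr2 was also the member whose profile over the 9 arrays was most like that of S1pr1. Likeness was the root mean square difference of log2 values after each gene was centred on its own mean, and it was 0.221 for S1pr2, rank 109 of 14859 genes, against a median of 0.389. Sgpl1 (0.324) ranked 1392, S1pr3 (0.330) 1653 and Sgpp1 (0.357) 3585, while Spns2, with a difference of 0.678, ranked 14424. A gene with the same value on all 9 arrays would score 0.365. The ranks of Sgpl1, S1pr3 and Sgpp1 thus show little likeness to S1pr1. The 5 nearest genes were Tlr13, an RNA sensor (0.0794), Bcl2, a survival factor (0.0944), Il7r, a cytokine receptor chain (0.102), Npl, an enzyme of sialic acid breakdown (0.103), and Tbxas1, thromboxane synthase (0.117). They differed from CSF-1 alone by -0.51 to -0.71 at 3 days and by -0.59 to -0.78 at 1.5 days, close to S1pr1 by the way they were picked.

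**Figure D3:**
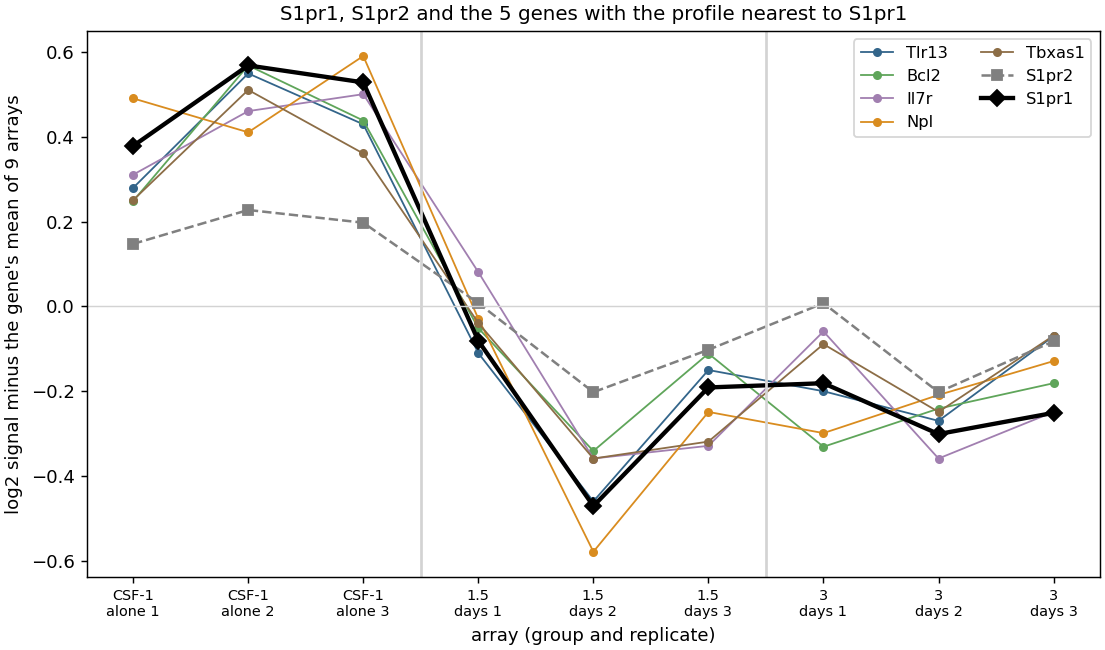
Log2 signal of S1pr1, S1pr2 and the 5 genes nearest to S1pr1, each centred on its own mean (y axis), on the 9 arrays (x axis). The lines of the 5 genes run with S1pr1, high on the 3 CSF-1 alone arrays and lowest on replicate 2 at 1.5 days, a value that Il7r also has on replicate 2 at 3 days.

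A list of 45 other genes of sphingolipid transport, synthesis and breakdown, 41 of them measured, held 0 genes that passed limma's test in any comparison. Over all genes 0.397% passed at 3 days, 0.417% at 1.5 days and 0% between the times, so few would be met in a list this short. The median change of the list was -0.02 at 3 days (19 above 0 and 22 below) and -0.03 at 1.5 days (16 above and 25 below). Of the 41, 4 had an unadjusted p under 0.05 at 3 days, against 10.5% of all genes, and 3 at 1.5 days, against 8.83%. At 3 days 4 genes were higher without overlap, against 6.59% of all genes, and 3 lower, against 4.91%, so these counts were near the background. Mfsd2b, an S1P exporter of red cells and platelets, was not analysed here.

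The largest difference of the list at 3 days was that of Abcg1, a transporter that moves cholesterol out of macrophages. It read 10.34, 9.48 and 9.49 in CSF-1 alone, 10.51, 10.21 and 10.23 at 1.5 days, and 11.12, 10.48 and 10.43 at 3 days. Its difference was 0.91 (0.28 to 1.53, adjusted p = 0.269), and replicate 1 was the highest array of each group. Abca1, another cholesterol transporter that has also been linked to S1P export, read 8.55, 7.44 and 7.32, then 8.71, 7.69 and 7.58, then 9.49, 8.14 and 8.19.

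The groups of Abca1 overlapped because replicate 1 was high throughout, and its 3-day difference was 0.84 (adjusted p = 0.621). Both transporters passed at 3 days when the limma fit held a term for replicate 1 against replicates 2 and 3 (adjusted p = 0.00538 for Abca1 and 0.0174 for Abcg1). The sources used here do not say whether replicate 1 was run apart from the others.

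Sgms2, a synthase that makes sphingomyelin from ceramide, had the most negative 3-day difference of the list. It read 5.54, 5.60 and 5.24 in CSF-1 alone, 5.57, 4.74 and 5.04 at 1.5 days, and 4.65, 4.58 and 4.58 at 3 days. The 3 arrays at 3 days lay below every other array. The difference was -0.86 (-1.31 to -0.40, adjusted p = 0.152), and among the adjusted tests run it passed only when replicate 1 at 1.5 days was left out of the shared spread.

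**Figure D4:**
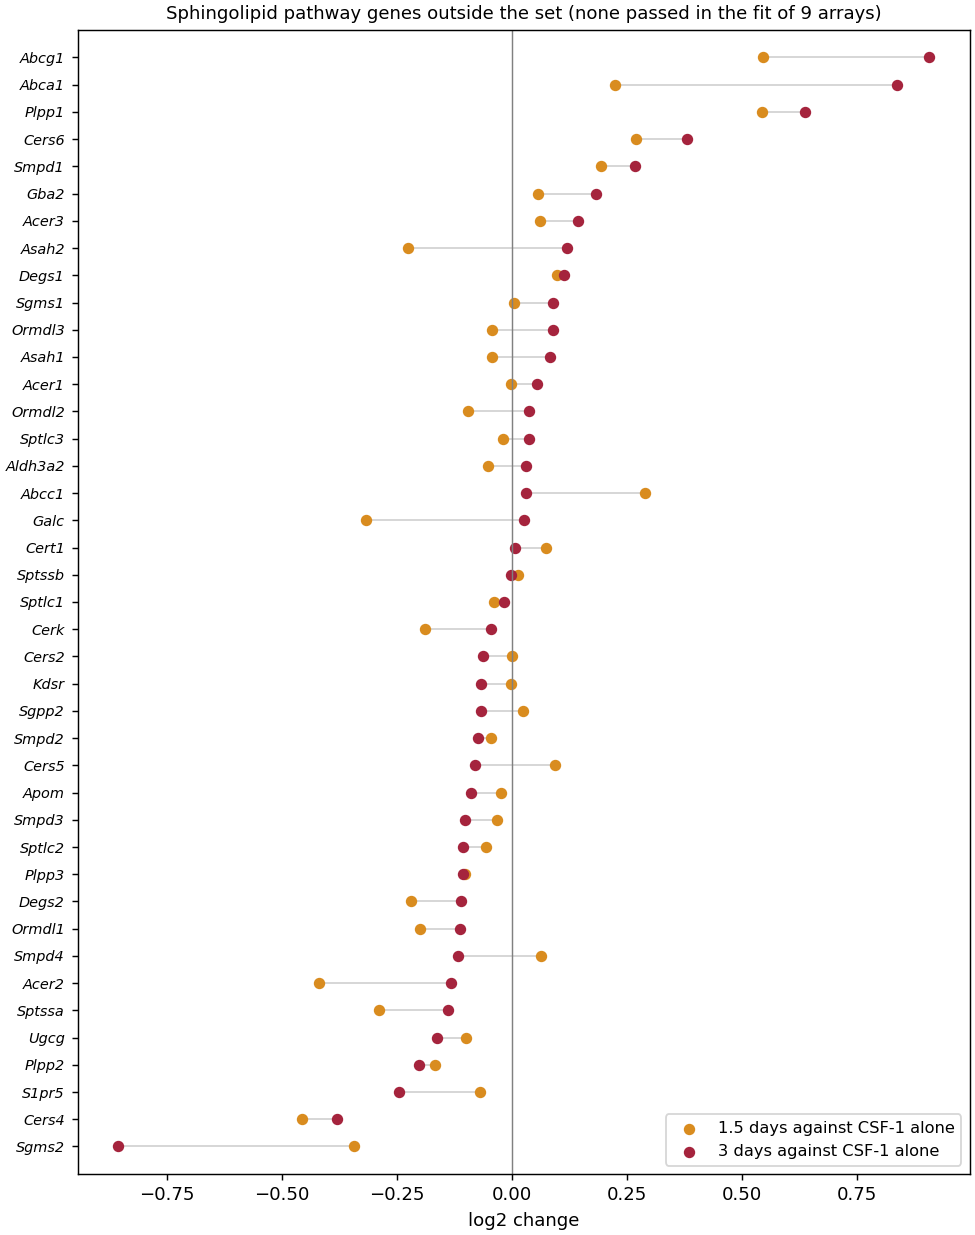
Log2 change of the 41 measured sphingolipid genes outside the set (y axis, sorted) at 3 days and 1.5 days against CSF-1 alone (x axis, log2 units). At 3 days the values run from -0.86 for Sgms2 to 0.91 for Abcg1, with the median at -0.02.

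Of 21 genes of S1P receptor signalling, such as G proteins and arrestins, 17 were measured. In limma's test 0 of them passed in any comparison (0.397% of all genes at 3 days, 0.417% at 1.5 days and 0% between the times). Their 3-day differences ran from -0.18 to 0.32, with 1 gene higher and 1 lower without overlap (6.59% and 4.91% of all genes). The 3-day median was -0.01, equal to that over all genes, and 2 of the 17 had an unadjusted p under 0.05, against 10.5% of all genes.

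S1pr1 and Spns2 are also transcripts of lymphocytes and endothelium, so markers of those cells were read on the same arrays. Of 9 lymphoid markers 8 were below the median gene on every array, and their mean level was 3.26 to 3.33 in CSF-1 alone, 3.15 to 3.27 at 1.5 days and 3.17 to 3.40 at 3 days. At 3 days 6 of the 9 had negative and 3 positive differences. Both B cell receptor components had groups that did not overlap, 1 lower (4.91% of all genes) and 1 higher (6.59%). Cd79b differed by -1.01 (adjusted p = 0.184) and Cd79a by 0.52 (adjusted p = 0.673), while the T cell marker Cd4 differed by 0.72 with groups that overlapped (adjusted p = 0.643). Of 8 endothelial markers 6 were below the median gene on every array, with a mean level of 4.41 to 4.47, 4.32 to 4.43 and 4.35 to 4.48. Kdr, a receptor for vascular growth factor, read 7.16, 7.79 and 7.79 in CSF-1 alone and 7.88, 7.91 and 8.06 at 3 days. It was higher without overlap, as were Spns2 and 6.59% of all genes (difference 0.37, adjusted p = 0.634). Of the 8 endothelial markers at 3 days, 4 had positive and 4 negative differences, from -0.35 for Cldn5 to 0.37 for Kdr. All but Kdr had groups that overlapped at that time. At 1.5 days the endothelial marker Vwf read 8.25, 7.85 and 7.80, below its controls of 8.54, 8.26 and 8.26 (difference -0.39, limma adjusted p = 0.722). Of all genes 6.05% were lower without overlap at 1.5 days. All other endothelial and lymphoid markers overlapped at that time.

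Granulocyte markers were read as well. Like the lymphoid and endothelial markers, they were picked after their values were seen, so counts over them are only a description. All 9 measured were below the median gene on every array, with a mean level of 3.45 to 3.59 in CSF-1 alone, 3.35 to 3.54 at 1.5 days and 3.20 to 3.37 at 3 days. At 3 days 8 of the 9 had negative differences, and 4, Camp, S100a9, Ctsg and Prtn3, were lower without overlap, by -0.46 to -0.21. Of all genes 4.91% were lower without overlap at that time. At 1.5 days 5 had negative and 4 positive differences, and 1 was lower without overlap (6.05% of all genes). No lymphoid, endothelial or granulocyte marker passed limma's test, which 0.397% of all genes passed at 3 days and 0.417% at 1.5 days. The part of these markers in the S1pr1 and Spns2 values was not tested.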

How the data were processed

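Total RNA of 9 samples was hybridised to Affymetrix Mouse Exon 1.0 ST arrays. The authors summarised them with Affymetrix Expression Console and RMA and deposited log2 values per transcript cluster; tool versions and annotation build: not given in the sources used here. RMA sets arrays to one distribution, so a shift of most genes would not show. Of 23332 clusters, 14996 had 1 gene symbol, and the brightest cluster per symbol left 14860 genes.

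Groups came from the labels. Group means were fitted over all 9 arrays with limma 3.58.1 (R 4.3.3), two-sided, with Benjamini-Hochberg adjustment over all genes and a threshold of 0.05, after it was tested on simulated data. For these arrays the study's methods give no test per gene. The number of arrays limits the precision: an exact test of 3 against 3 cannot go below 0.1.

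The labels give replicate numbers but no shared batch. Deviations of arrays from their group means were correlated between 1.5 and 3 days. Same-numbered arrays gave 0.146 to 0.366, and different-numbered arrays -0.315 to 0.178. Replicate 3 at 1.5 days correlated more with replicate 2 at 3 days (0.178) than with replicate 3 (0.146). These values leave pairing by number uncertain for replicates 2 and 3. The main fit held no term for pairing.

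Members and lists were chosen with earlier results of these data known. Named were all members, the 3 pathway genes with the largest changes, S1pr5, Sgpp2 and Mfsd2b, the 5 genes nearest to S1pr1 and 3 OC enzymes. Other OC markers and markers of other cell types were picked after their values were seen. Alternatives were a replicate block, an array set term, quantile normalization, centring, a filter on dim genes, a trended variance, array weights, all clusters, cluster means, 6 arrays only, each array left out, and the unpaired t-test.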

Additional observations from a re-analysis of the deposited data

How the results depend on the processing

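S1pr1 against CSF-1 alone is the difference that chose the set, so its values under the alternatives are given only as a description. All were negative. Since all 6 RANKL arrays lay below the lowest control, leaving out an array could not turn the sign. The difference ran from -0.82 to -0.63 at 1.5 days and from -0.79 to -0.70 at 3 days when each array was left out. S1pr2 stayed negative in both comparisons, and of the 8 other members only S1pr2 ever passed: with array weights at 1.5 days (1 member), and with the methods' t-test unadjusted (1 at each time). Of the pathway genes 2, Abca1 and Abcg1, passed at 3 days with the replicate block (adjusted p = 0.0194 and 0.0475), 2 with the array set term and 5 with the unadjusted t-test. At 1.5 days 2 passed with array weights and 2 with the unadjusted t-test. Leaving out an array gave 0 to 1 at either time (Sgms2 at 3 days and Sptssa at 1.5 days, both without replicate 1 at 1.5 days).

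Signs turned only for differences that passed no test. With quantile normalization, 3-day S1pr4 was -0.021 and Sgpp1 -0.005, and between the times S1pr1 was -0.017 and S1pr2 -0.013. With centring these were -0.037, -0.037, -0.043 and -0.04, and with array weights 3-day S1pr4 was -0.054. Leaving out arrays moved 3-day S1pr4 from -0.14 to 0.24, Sgpp1 from -0.0017 to 0.043 and Sgpl1 from -0.092 to 0.043, and 1.5-day S1pr4 from -0.32 to 0.085. Between the times it moved S1pr1 from -0.11 to 0.087, S1pr2 from -0.045 to 0.062, S1pr3 from -0.38 to 0.048, S1pr4 from -0.058 to 0.42 and Sphk2 from -0.045 to 0.13. The cause was not tested. Centring shifted the median of all genes by at most 0.07.

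Between 1.5 and 3 days, where pairing by number was uncertain for replicates 2 and 3, the replicate block changed no call. Against CSF-1 alone 2 of 3 same-numbered pairs correlated above 0.1 at either time, and CSF-1 alone replicate 2 fell short (0.0461 and 0.0634), so the arrays were taken to share only a number. Replicate 1 nonetheless stood apart: it correlated with replicate 1 of the other groups at 0.27 to 0.366 and with other replicates at -0.315 to -0.0985. Deviations from a mean of 3 arrays cancel out within a group, so these negative correlations follow in part from the positive ones. Over all genes the block gave 97 calls at 3 days against 59, and 71 at 1.5 days against 62. The array set term gave 215 and 205, array weights 65 and 607, the dim filter 95 and 95, all clusters 15 and 10, 6 arrays only 31 and 26, and the t-test 0 and 8 adjusted or 964 and 1334 unadjusted. Leaving out arrays gave 4 to 102 and 2 to 139.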
